A study of Homo sapiens with 12 samples.

Results

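The open reading frames (ORFs) described here start at ATG and were called from ribosome footprints on transcripts annotated as non-coding, in HEK293 cells, a human embryonic kidney line. An ORF was taken when the deposited table gave its type as ncRNA and its start codon as ATG, when it did not lie on the mitochondrial chromosome, and when it did not lie inside GAS5, ZFAS1 or an SNHG gene, which host small nucleolar RNAs in their introns. This left 5613 of 149028 ORFs (3.766%), and they are called the members below. They were 11.968% of the 46899 ORFs of type ncRNA, and 69 ATG ORFs in the excluded genes were left out. The name of an ORF joins the RefSeq gene around it, or else the gene identifier of the table, to its length in nucleotides, stop codon included.

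Cells were starved of amino acids for 1 h in Earle's salt solution that still held vitamins and serum, starved of serum for 2 h, or kept in log phase in full medium. Lysates held cycloheximide, which arrests elongating ribosomes, and were separated on gradients. Footprints were sequenced from pooled monosome fractions, where an RNA carries 1 ribosome, and from pooled polysome fractions, where it carries several. Each of the 6 groups (amino acid starvation, serum starvation and log phase, each as monosome and polysome) had 2 libraries, named A and B as in the table. Whether A and B came from separate cultures is not labelled, so each p-value measures only how far these libraries spread. Footprints follow the amount of an RNA and its translation alike, no mRNA libraries were analysed here, and fewer copies of an RNA cannot be told apart from fewer ribosomes per copy.

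A ribosome on a short ORF leaves little room for another, so RNAs with short ORFs are known to run in the monosome fraction even when they are translated. Long non-coding RNAs (lncRNAs) are often bound by ribosomes on short ORFs, most of which have no known protein product. Processed transcripts of coding genes, such as those with a retained intron, and pseudogenes, which are copies of genes, are also annotated as non-coding and can carry long stretches of a coding frame. Structured RNAs such as the small nuclear RNAs of the spliceosome are not translated, and their fragments can still appear among reads of footprint size.

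Counting each codon once (described below), footprints numbered 354507.5 to 1204003.2 in monosomes and 2477821.9 to 7683720.4 in polysomes. A 9-nt ORF that starts at ACG and is no member took 47.9% of log phase monosome A and 47.5% of amino acid starvation monosome A. A member of 6 nt in FBXO21, FBXO21_6nt at chr12:117188959-117188964, took 8.72% of amino acid starvation polysome A. These 2 ORFs, the only ones above 5% of a library, were left out of the totals where stated. Of the HEK293 markers, the neurofilament genes NEFM and NEFL and vimentin (VIM) had medians of 783, 273 and 69.7 CPM (footprints of an ORF per 1000000 footprints of its library), KRT8 had 0.49, and KRT18 and PAX2 had no called coding ORF. Markers of hepatocytes (ALB), leukocytes (PTPRC) and red cells (HBB) also had none, and the fibroblast marker COL1A1 had a median of 1.31.

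Sequence could be read for members that lie unspliced in RefSeq promoter windows of GRCh38.p14, which run from 250 bases before to 50 after the start of a gene. The 4 shown here, 2 in lncRNA hosts and 2 in coding hosts, were chosen after their values were seen, because their short frames differ in monosome and polysome level as described next. Each line gives the strand of the ORF with 6 bases before it, 5′ to 3′, and the capitals mark the start and stop codons.
RAB30-DT_48nt (chr11:83072097-83072144, + strand): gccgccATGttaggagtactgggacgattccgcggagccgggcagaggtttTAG
TSNAX-DT_15nt (chr1:231528480-231528494, − strand): cacagcATGcactgttacTAA
ZNF749_12nt (chr19:57435357-57435368, + strand): gttagcATGgctaccTAG
EOLA2_12nt (chrX:149938425-149938436, − strand): gaagttATGgaccgcTAG

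RAB30-DT, a transcript that diverges from RAB30, carries the first of these. RAB30-DT_48nt had 2.53, 12.5 and 42.2 CPM in monosomes (lowest, median and highest of 6 libraries), against 1.21, 3.51 and 8.67 in polysomes. The ranges overlap, and the fitted log2 of monosome over polysome was 2.34 (adjusted p = 0.00129, edgeR quasi-likelihood test over all conditions). TSNAX-DT_15nt, on the transcript divergent from TSNAX, had 7.33, 8.9 and 31.5 CPM in monosomes, against 0.045, 0.403 and 0.898 in polysomes, with no overlap (log2 5.39, adjusted p = 8.45e-05). ZNF749_12nt, in a gene of the zinc finger family, had 7.37, 21.3 and 28.5 CPM in monosomes, against 4.04, 4.54 and 7.74 in polysomes (log2 1.95, adjusted p = 0.00843). EOLA2_12nt, as short as the ZNF749 ORF, had 17.9, 26.5 and 59.0 CPM in monosomes and 11.6, 27.3 and 54.8 in polysomes, and its log2 of 0.17 did not pass the test (adjusted p = 0.833).

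Among the members, 83 lay inside such a window, and 78 of these had the 6 bases before the start. A purine stood 3 bases before the ATG in 53 of the 78 (67.9%), against 136 of 246 ATG ORFs upstream of coding sequences (55.3%). G followed the ATG in 45 (57.7%), against 101 of the upstream ORFs (41.1%), and both held in 32 (41.0%), against 70 (28.5%). A purine at that place and G after the ATG are known as features of a strong start site. These shares describe ORFs near transcript starts only, and their difference was not tested. Of all members 203 begin at the start codon of a called coding sequence, and how many of the 78 begin at a protein's start was not counted.

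The label non-coding holds for the transcript more than for the gene. Of the 5613 members, 4155 (74.02%) lay in protein-coding genes, 924 (16.46%) in pseudogenes, 384 (6.84%) in lncRNA genes, 49 (0.87%) in genes of other RNAs and 101 (1.8%) in no RefSeq gene. For 3239 of those in protein-coding genes a gene identifier also had ORFs typed as coding, or as upstream of, inside or downstream of a coding sequence. The rest were placed by position in RefSeq alone, in part without a known strand. Any 1 of several joined identifiers was enough, and 1223 members had several. The coding class therefore also holds members such as RNU1-2_33nt and RNU1-4_33nt, in copies of a small nuclear RNA. Members had a median length of 39 nt (quartiles 18 and 78), from 6 to 7092 nt, and 1517 crossed a splice junction. 203 began at the start codon of a called coding sequence, so they share it with a known protein. To count each codon once, 575 members that shared codons with a coding ORF and 590 that shared them with another ORF of higher total were set aside, which kept 4448 members with a median of 25.5 footprints over 12 libraries. Many were sparse: 1321 kept members had fewer than 12 footprints in all, and 716 had at least 120.

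The members' share of all footprints was larger in monosomes than in polysomes. With the 2 dominating ORFs left out, members held 2.74 and 3.30% of monosome footprints in amino acid starvation, 2.47 and 3.43% in serum starvation and 2.38 and 3.13% in log phase. In polysomes they held 1.42 and 1.74% in amino acid starvation, 1.53 and 1.57% in serum starvation and 1.41 and 1.60% in log phase. Every monosome library lay above every polysome library, and the conditions overlapped within a fraction. Much of this gap lay in the mitochondrial and small nuclear host sets described below. Without them the log2 of the monosome over the polysome share averaged 0.23 ± 0.20, against 0.90 ± 0.16 with them (SD, n = 6 pairs of the same condition and letter). It was then above 0 in 5 of 6 pairs. With all ORFs in the totals, amino acid starvation polysome A held 10.0% in members, against 1.74% in polysome B, and FBXO21_6nt alone made up 8.72% of polysome A.

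**Figure D1:**
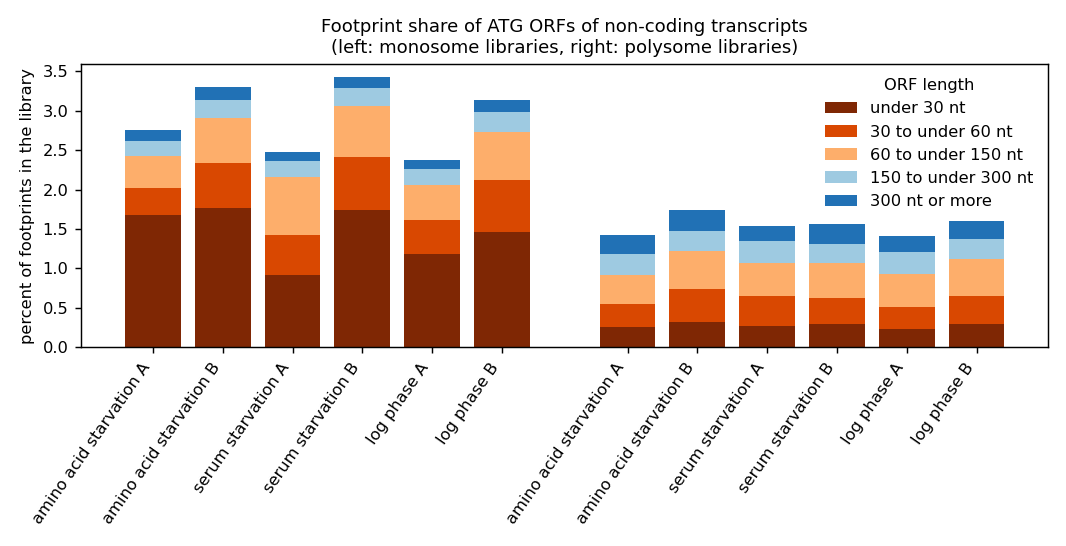
Share of footprints held by the kept members in each of 12 libraries, in percent, with the 2 ORFs above 5% of a library left out of the totals; colours stack the length classes. Monosome libraries reach 2.38 to 3.43% and polysome libraries 1.41 to 1.74%, and most of the gap lies in ORFs under 30 nt.

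The gap differed by length. Members under 30 nt held 1.46 ± 0.345% of monosome footprints against 0.280 ± 0.034% of polysome footprints (SD, n = 6 libraries). Members of 30 to under 60 nt held 0.531 ± 0.128% against 0.345 ± 0.0513%, and those of 60 to under 150 nt 0.569 ± 0.128% against 0.428 ± 0.038%. Longer ORFs had the opposite order, with 0.218 ± 0.0237% against 0.261 ± 0.0165% at 150 to under 300 nt and 0.135 ± 0.0187% against 0.232 ± 0.0341% at 300 nt or more.

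Per library pair of the same condition and letter, the log2 of the monosome over the polysome share was lower in each longer class. It was 2.35 ± 0.32 under 30 nt, 0.60 ± 0.30 at 30 to under 60 nt, 0.38 ± 0.27 at 60 to under 150 nt, −0.26 ± 0.22 at 150 to under 300 nt and −0.78 ± 0.09 at 300 nt or more (SD, n = 6 pairs). The 3 shorter classes were above 0 in 6 of 6 pairs, the next in 1 and the longest in 0. ORFs of all types and of these lengths gave 1.48, 0.86, 0.47, 0.16 and −0.83 in the same order. In each condition the shortest members had the highest value. In pairs A and B, members under 30 nt reached 2.70 and 2.43 in amino acid starvation, 1.77 and 2.56 in serum starvation and 2.35 and 2.29 in log phase. With FBXO21_6nt and the other dominating ORF kept, the value under 30 nt was 1.88 ± 1.52, and −1.06 in the amino acid starvation pair A.

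Much of the sum under 30 nt came from few hosts. With the 2 dominating ORFs left out of the totals, members in nuclear copies of mitochondrial genes summed to 3060, 5210 and 9410 CPM in monosomes (lowest, median and highest), against 22.3, 128 and 262 in polysomes. They made up 22.5 to 52.8% of the footprints of members under 30 nt in monosome libraries, and 0.92 to 8.62% in polysome libraries. Members in genes of small nuclear, small nucleolar and 7SK RNAs and in their copies summed on the same totals to 3030, 5450 and 8400 CPM in monosomes, against 112, 260 and 567 in polysomes. Both sets were chosen after their values were seen. Without them the log2 was 0.89 ± 0.77 under 30 nt, still above 0 in 6 of 6 pairs. ORFs of all types under 30 nt, with these hosts kept, gave 1.48. Under 30 nt the A pairs of amino acid starvation (2.12) and log phase (1.56) lay highest, and the other pairs gave 0.15 to 0.64. LOC105371998_15nt alone held 2795.8 and 2034.2 footprints in the monosome libraries of those A pairs, and the mean without it was not computed. At 30 to under 60 nt the log2 was 0.06 ± 0.29, above 0 in 4 pairs. The longer classes hardly moved (0.31 ± 0.28 at 60 to under 150 nt, and the same −0.26 and −0.78 beyond). Without the sets the order by length no longer held in full. Members under 30 nt lay below those of 60 to under 150 nt in serum starvation pair A (0.48 against 0.77). They also did so in amino acid starvation pair B (0.15 against 0.24), and lay above them in the other pairs.

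**Figure D2:**
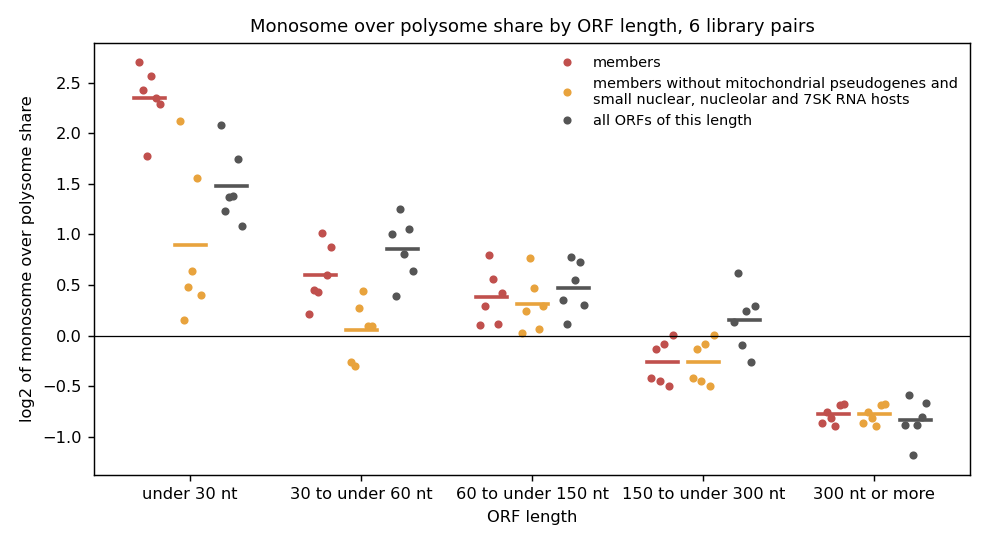
Log2 of the monosome over the polysome share of summed footprints, by ORF length; each point is 1 pair of libraries of the same condition and letter (6 pairs) and each line their mean, for members, for members without mitochondrial pseudogenes and small nuclear, nucleolar and 7SK RNA hosts, and for ORFs of all types. Members run from 2.35 under 30 nt to −0.78 at 300 nt or more, and without the named hosts the shortest class averages 0.89.

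For single ORFs, 1060 of the 4448 kept members passed the filter on low counts and were tested among 26466 ORFs. That filter acts mainly on CPM, so members with few footprints could pass it through the shallower monosome libraries. GRM3-AS1_12nt, higher in monosomes with 36.4 footprints in all, was tested. MBNL1_39nt, higher in polysomes with 116.9, was not. Over the 3 conditions 264 members were higher in monosomes (24.9%), where 16.7% of all tested ORFs were, and 192 were lower (18.1%), where 22.8% of all were (adjusted p under 0.05, edgeR quasi-likelihood test). The median log2 was 0.09 for members and −0.48 for all ORFs. In all 456 members passed, where 39.5% of all tested ORFs did, and the monosome and polysome libraries did not overlap for 175 of them. These were 16.5% of the tested members, against 17.3% of all tested ORFs, with 96 higher (9.06%, against 6.12% of all) and 79 lower (7.45%, against 11.2% of all). Overlap was judged on CPM, which the dominating ORFs lower in log phase and amino acid starvation monosome A. With the replicate block described below 599 members passed, where 54.5% of all tested ORFs did. The split depends on the scaling: with factors taken from coding ORFs, which moved the median of all ORFs to 0.15, 322 members were higher and 80 lower, with a member median of 0.73. The shares of all ORFs called with these factors are not given here.

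By length, the members that rose were 81 of 231 under 30 nt (35.1%, against 28.3% of all ORFs of that length), 91 of 298 at 30 to under 60 nt (30.5%, against 21.8%) and 78 of 371 at 60 to under 150 nt (21.0%, against 16.3%). They were 13 of 114 at 150 to under 300 nt (11.4%, against 11.8%) and 1 of 46 at 300 nt or more (2.17%, against 5.51%). At 300 nt or more 15 fell (32.6%, against 40.9% of all ORFs). The median log2 of members ran 1.16, 0.55, −0.06, −0.38 and −0.56 over the 5 classes, and 0.05, −0.27, −0.32, −0.48 and −0.95 over all ORFs. With factors from coding ORFs the members' medians were 1.77, 1.20, 0.55, 0.20 and 0.09, so the order by length held and the sign of the 3 longer classes turned. Across the 1060 members, length and log2 had a Spearman rho of −0.20, and total footprints and log2 one of −0.45 (−0.13 and −0.36 over all ORFs). These are descriptions across ORFs of shared libraries, and total footprints come mostly from the deeper polysome libraries. The filter let through 231 of 1878 kept members under 30 nt, against 46 of 51 at 300 nt or more. The counts and medians by length therefore hold only for tested members, and short ones could pass through the monosome libraries where they are high.

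By host, the members in structured RNA and lncRNA genes stood out. Of all tested ORFs 16.7% rose and 22.8% fell. Of members in genes of other RNAs, 30 of 34 rose and 0 fell (median log2 3.58), and these 34 hold 30 distinct sets of values. Only 7 of the 34 lay outside the mitochondrial and small nuclear sets, which were chosen after values were seen, and 5 of these 7 rose. Of those in lncRNA genes 37 of 71 rose and 4 fell (2.31), and of those in no RefSeq gene 7 of 22 rose and 1 fell (1.67). The 71 were tested out of 333 kept lncRNA members, so these counts hold only for members that the filter let through. Members in protein-coding genes numbered about as many on either side, with 119 of 672 higher, 123 lower and a median of −0.20, and within them the shortest class had a median of −0.11. Pseudogenes had 71 of 261 higher and 64 lower (−0.34). Outside the mitochondrial and small nuclear sets, 196 of 987 members rose (19.9%) and 192 fell (19.5%), with a median of −0.14. With factors from coding ORFs the medians were 4.18 for other RNA genes, 2.96 for lncRNA genes, 2.31 for no RefSeq gene, 0.43 for protein-coding genes and 0.31 for pseudogenes, so the last pair changed sign.

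**Figure D3:**
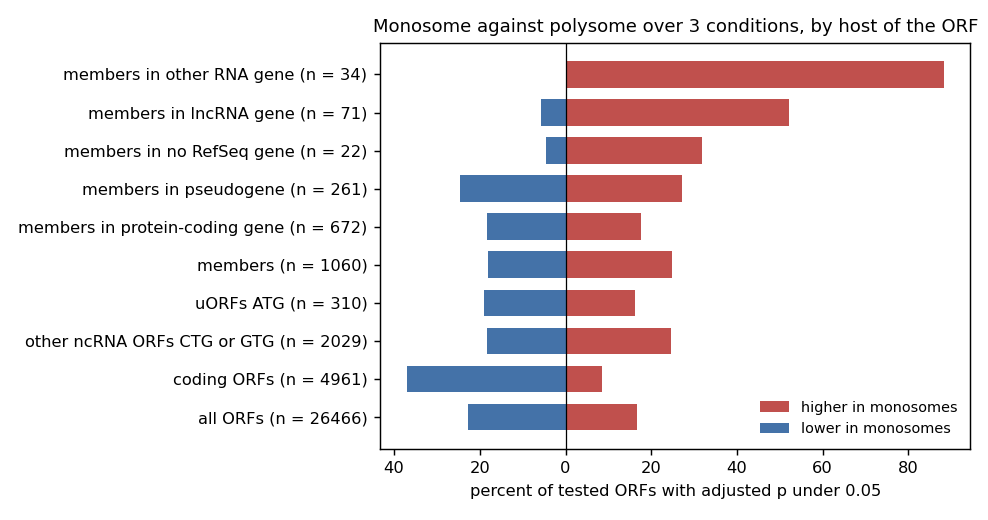
Percent of tested ORFs that were higher (right) or lower (left) in monosomes than in polysomes over 3 conditions, at an adjusted p under 0.05, by the host of the member and for other kinds of ORF; n is the number tested. Members in other RNA genes (88.2% higher) and lncRNA genes (52.1%) stand far to the right, and coding ORFs (8.55% higher, 37.0% lower) to the left.

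Several members with high levels lay in structured RNA and mitochondrial hosts. MTCO1P12 is a nuclear copy of the mitochondrial gene for cytochrome oxidase subunit 1. MTCO1P12_18nt (chr1:631074-631091) had 1440, 4510 and 8790 CPM in monosomes, against 21.3, 122 and 245 in polysomes (log2 5.43, SE 0.658, adjusted p = 3.77e-05). MTCO3P12_102nt, in a copy of the subunit 3 gene, had 30.7, 42.6 and 105, against 0.26, 0.473 and 1.19 (log2 6.78, adjusted p = 2.38e-06). For both ORFs every monosome library lay above every polysome library. All 6 tested members in mitochondrial pseudogenes rose, where 16.7% of all tested ORFs did. Reads of the mitochondrial gene itself cannot be told apart from reads of a near-identical nuclear copy.

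U1, U2 and U4 are small nuclear RNAs of the spliceosome. RNU2-36P_18nt (chr9:86423017-86423034), in a U2 copy, had 932, 2770 and 4360 CPM in monosomes, against 50.3, 103 and 255 in polysomes (log2 4.60, SE 0.528, adjusted p = 2.53e-05). RNU4-2_36nt, in a U4 gene, had 18, 23.8 and 94.2, against 0.121, 0.562 and 1.21 (log2 5.96, adjusted p = 3.69e-06). Again the fractions did not overlap. RNU1-1_33nt, RNU1-2_33nt and RNU1-4_33nt, in copies of U1, held identical values in every library, with medians of 80 in monosomes and 7.01 in polysomes (log2 3.67, adjusted p = 0.000105). Of 67 tested members in such genes and copies 62 rose and 0 fell, where 16.7% and 22.8% of all tested ORFs did. These 67 hold only 51 distinct sets of values. Among 3127 kept members with at least 12 footprints, 189 (6.04%) had the values of another ORF in all libraries, against 2.65% of all ORFs, and their counts are uncertain for that reason.

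Of the lncRNA hosts chosen by name, 11 of 13 cytoplasmic or widely expressed genes had a member, 3 of 6 nuclear genes, 1 of 6 structured RNA genes, and 2 of 12 genes reported to encode a small protein. DANCR_144nt, in a lncRNA that represses differentiation of progenitor cells, had 9.06, 40 and 80.8 CPM in monosomes, against 3.82, 4.53 and 11.3 in polysomes (log2 2.53, SE 0.494, adjusted p = 0.00155). FGD5-AS1_30nt, in a widely expressed antisense transcript, had 4.11, 7.94 and 18.1, against 0.225, 0.43 and 0.963 (log2 4.04, adjusted p = 0.000465). MALAT1_12nt, in a lncRNA of nuclear speckles, had 11, 71.8 and 269, against 2.32, 7.24 and 21.5 (log2 3.32, adjusted p = 0.00224). In CPM the fractions overlapped for DANCR and MALAT1 and did not for FGD5-AS1. FGD5-AS1_30nt, with 52.9 footprints in all, met the filter on low counts only through its monosome libraries. The overlap for DANCR_144nt rests on its 9.06 CPM in amino acid starvation monosome A, a library whose CPM the dominating ORFs lower.

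The NORAD, THAP9-AS1 and JPX members did not pass the test. The log2 was 1.48 for NORAD_39nt (adjusted p = 0.348), 0.49 for THAP9-AS1_69nt (adjusted p = 0.632) and −0.51 for JPX_75nt (adjusted p = 0.609). SMIM30, once annotated as a lncRNA and now known to encode a small membrane protein, carried SMIM30_81nt with 8.66, 29.3 and 139 CPM in monosomes, against 11.6, 13.8 and 27.5 in polysomes (log2 0.91, adjusted p = 0.166). Among the lncRNA members that passed, LCMT1-AS1_6nt, a start codon followed at once by a stop, had 29, 49.9 and 87 CPM in monosomes, against 0, 1 and 2.26 in polysomes (log2 5.87, adjusted p = 0.000376). LOC105371998_15nt had 0, 68.5 and 3720 CPM in monosomes, with 3720 in amino acid starvation A and 1690 in log phase A, against 0, 0.189 and 19.4 in polysomes (log2 7.85, adjusted p = 0.00233).

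The ORF caller gives each ORF a p-value of its own. At a p under 1e-4, 59 members remained. The 47 kept ones were 1.06% of the kept members, where 2.76% of all 124829 kept ORFs had such a p, and their median length was 258 nt, against 33 nt for the other kept members. Of 37 tested, 1 rose in monosomes (2.7%, against 2.83% of the 3218 tested ORFs of all types with such a p) and 11 fell (29.7%, against 47.7%). Their median log2 was −0.64, against −1.11 for those ORFs of all types. The member that rose was LINC03015_78nt, in a lncRNA, with 4.16, 10.5 and 14.5 CPM in monosomes, against 0.726, 1.33 and 2.49 in polysomes (log2 2.82, adjusted p = 0.00257). EMSLR_258nt, the lncRNA member with the highest total among those with a caller p under 1e-4, had 8.89, 15.2 and 20.6, against 17, 23.8 and 45.9, and its log2 of −0.66 did not pass (adjusted p = 0.271). TCEA1P2_873nt, in a copy of the elongation factor gene TCEA1, had 20.3, 38.7 and 49.3, against 51.8, 63.4 and 68.5, and did not pass either (log2 −0.55, adjusted p = 0.249). Its ranges do not overlap in CPM, but the dominating ORFs lower its values in log phase and amino acid starvation monosome A (20.3 and 37.3). Its separation is therefore uncertain.

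Of 37 tested members of 300 nt or more in protein-coding genes, 1 rose and 12 fell (32.4%, against 40.9% of all ORFs of that length). EBNA1BP2 acts in ribosome assembly, and EBNA1BP2_414nt had 14.5, 27.4 and 59.8 CPM in monosomes, against 164, 231 and 243 in polysomes (log2 −2.68, SE 0.365, adjusted p = 0.000103). PYGL_681nt, in the gene of liver glycogen phosphorylase, had 17, 45 and 82.4, against 110, 126 and 156 (log2 −1.45, adjusted p = 0.00919). The fractions did not overlap for either ORF. CCT5_753nt, in a chaperonin subunit gene, fell by 1.21 on the log2 scale (adjusted p = 0.0353), and PAIP2_243nt, in the gene of a poly(A)-binding protein inhibitor, by 1.11 (adjusted p = 0.0391). The call was lost in 9 of the alternatives for CCT5_753nt and in 8 for PAIP2_243nt.

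Some short members lay toward polysomes. SUB1_30nt, in the gene of a transcription coactivator, had 8.64, 24.9 and 83.3 CPM in monosomes, against 150, 214 and 376 in polysomes (log2 −3.01, SE 0.447, adjusted p = 0.000213). CALM2_18nt, in a calmodulin gene, had 3.82, 15.4 and 64, against 86.2, 162 and 269 (log2 −3.17, adjusted p = 0.00133). Neither overlapped between fractions. BLOC1S2_99nt, in the gene of a subunit of BLOC-1, a complex of lysosome-related organelles, lay on the other side with 28.7, 76.4 and 648, against 1.31, 2.1 and 5.26 (log2 5.54, adjusted p = 4.45e-05), and so did SMDT1_96nt, in the gene of a mitochondrial calcium uniporter subunit, with 64.2, 109 and 683, against 4.24, 6.33 and 7.45 (log2 4.91, adjusted p = 1.39e-05).

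**Figure D4:**
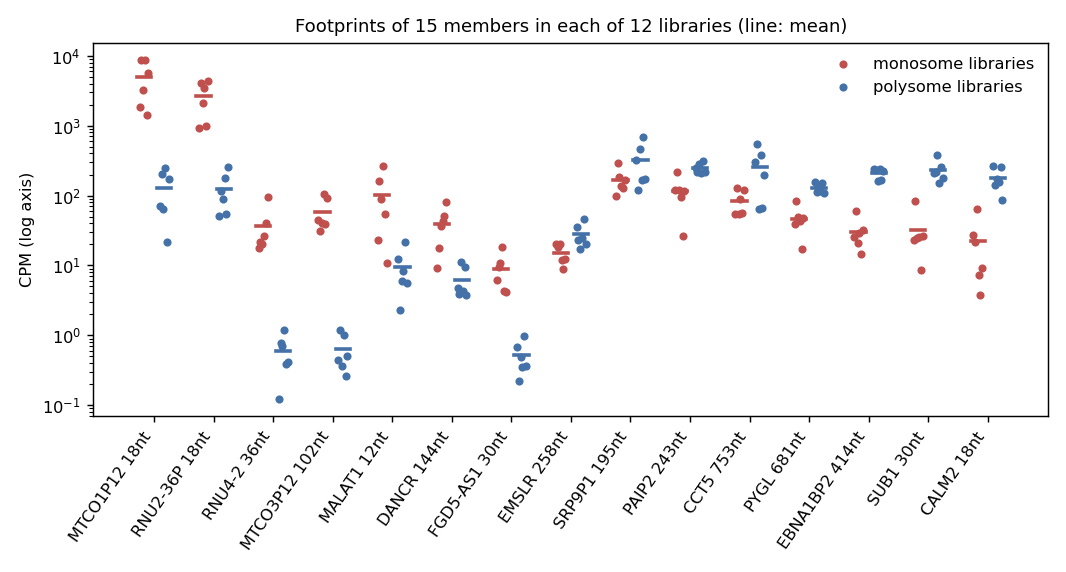
CPM (log axis) of 15 members in each of 12 libraries; points are libraries, lines are means, monosomes left of polysomes. MTCO1P12 18nt and RNU2-36P 18nt are highest in monosomes, and EBNA1BP2 414nt, SUB1 30nt and CALM2 18nt lie apart on the polysome side.

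Some members rest on 1 library. For 70 of 1060 tested members (6.6%, against 3.96% of all ORFs) a single library held more than 50% of the sum of CPM values. That library was a monosome one in 59 cases, serum starvation monosome B in 30 and A in 18. FBXO21_6nt is the extreme: in libraries A and B it had 34600 and 413 CPM in amino acid starvation monosomes, 0 and 8.2 in serum starvation monosomes and 17200 and 577 in log phase monosomes. In polysomes it had 87200 and 1.15, 13.5 and 101, and 40.4 and 1.67, in the same order of conditions. Its monosome and polysome ranges overlapped, and the log2 of 1.85 did not pass (adjusted p = 0.366).

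Within single conditions fewer members passed. In amino acid starvation 54 of 1060 members passed, where 3.35% of all tested ORFs did. Of these 51 were higher in monosomes and 3 lower, against 3.01% and 0.34% of all. With a term for the library letter (a replicate block) 183 were higher and 52 lower, 235 in all, where 18.4% of all ORFs passed. In serum starvation 70 passed, where 6.73% of all did, 57 of them higher and 13 lower, against 4.6% and 2.13% of all. With the block 234 were higher and 104 lower, where 29.6% of all passed. In log phase 92 passed, where 6.78% of all did, 73 of them higher and 19 lower, against 4.99% and 1.79% of all. With the block 234 were higher and 101 lower, where 26.8% of all passed. With the block, 11.1% and 7.29% of all tested ORFs were higher and lower in amino acid starvation, 15.6% and 14.0% in serum starvation and 14.9% and 11.9% in log phase. The median log2 of members was 0.04, 0.22 and 0.12 in the 3 conditions, and that of lncRNA members 1.78, 1.62 and 2.45. These counts hang on single libraries: 0 members passed in amino acid starvation without polysome A or without polysome B and 3 without monosome A, 8 passed in serum starvation without polysome A, and 19 in log phase without polysome A.

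Within a fraction, few members differed between starvation and log phase. Without the block, 0 members and 0.0% of all tested ORFs passed for either starvation against log phase, in monosomes or polysomes (edgeR quasi-likelihood test). At an unadjusted p under 0.05 there were 84 members in amino acid starved polysomes (1555 of all ORFs), 21 in amino acid starved monosomes (692), 10 in serum starved polysomes (130) and 53 in serum starved monosomes (1047). DESeq2 called 2 members in amino acid starved polysomes. For the ratio of monosome to polysome level, the difference from log phase also gave 0 members, with 31 in amino acid starvation and 21 in serum starvation at an unadjusted p under 0.05.

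With the block, 8 members were higher and 15 lower in amino acid starved than in log phase polysomes, where 0.378% and 1.24% of all tested ORFs were. Of the 15, 8 lay in pseudogenes of ribosomal proteins and 5 in ribosomal protein genes, whose mRNAs are known to leave polysomes when amino acids are lacking. RPL13AP18_141nt, in a copy of RPL13A, had 3.15 and 4.14 CPM in amino acid starved polysomes A and B, against 35.5 and 40.6 in log phase polysomes (log2 −3.57, SE 0.706, adjusted p = 0.0140, edgeR with the block). RPLP0_48nt, in the gene of a protein of the ribosomal stalk, had 0.605 and 0.541, against 11.6 and 6.05 (log2 −3.86, SE 0.868, adjusted p = 0.0261). RPL28_183nt had 2.18 and 2.91, against 27.0 and 18.6 (log2 −3.35, adjusted p = 0.0244). The libraries of the 2 conditions did not overlap for any of the 3, which was also a condition for naming them.

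RPL12_39nt had 1.61 and 1.67 CPM in amino acid starved polysomes, against 29.4 and 18.0 in log phase polysomes (log2 −3.86, adjusted p = 0.0198). NBEAL1_84nt, on another chromosome, had 1.61 and 1.67, against 29.1 and 18.0 (log2 −3.85, adjusted p = 0.0204). These near-equal values in both pairs make the share of reads between the 2 ORFs uncertain. The other member of the 15 outside ribosomal protein genes and pseudogenes was GPBP1L1_63nt (log2 −2.68). Among the 8 higher members, HDAC1_111nt, in a histone deacetylase gene, had 39.6 and 105, against 4.36 and 19.3 (log2 2.64, adjusted p = 0.0289), and RBM4_318nt, in the gene of a splicing regulator, had 33.4 and 61.1, against 4.65 and 17.1 (log2 2.17, adjusted p = 0.0484). The largest rise was that of FBXO21_6nt (log2 9.73, adjusted p = 0.0332, edgeR with the block). It had 87200 and 1.15 CPM, against 40.4 and 1.67, so it rests on library A. The libraries of the 2 conditions did not overlap for 4 of the 8 higher and all 15 lower members. The same share over all ORFs was not computed. Members picked by adjusted p with 2 libraries a side tend not to overlap, so this count adds no support.

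Members in ribosomal protein pseudogenes as a group, with the 2 dominating ORFs left out of the totals, summed to 780 and 773 CPM in amino acid starved polysomes A and B, against 2280 and 2190 in log phase polysomes, and serum starved polysomes had 2330 and 1330, against the same log phase libraries. In monosomes they averaged, on the same totals and in CPM, 1020 ± 374 in amino acid starvation, 1900 ± 353 in serum starvation and 1330 ± 303 in log phase (SD, n = 2). Of 75 tested, 71 had a log2 below 0 for amino acid starved over log phase polysomes, with a median of −1.68, where the median of all members was −0.08. Members in ribosomal protein genes had a median of −1.40 (25 of 31 below 0), and coding ORFs of those genes one of −2.20 (80 of 80 below 0). These lists were chosen after their values were seen. Reads of a ribosomal protein mRNA and of its pseudogene copies share sequence, and how the caller divided them was not tested.

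**Figure D5:**
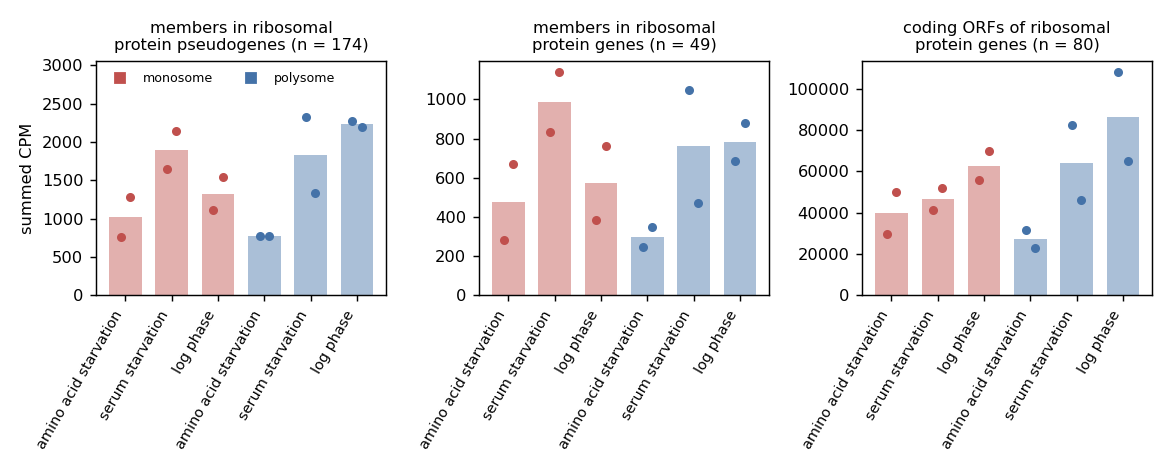
Summed CPM, with the 2 dominating ORFs left out of the totals, in the 2 libraries of each group (points; bars are means) for members in ribosomal protein pseudogenes, members in ribosomal protein genes and coding ORFs of ribosomal protein genes; each panel has its own axis. In polysomes the pseudogene members reach 780 and 773 in amino acid starvation, 2330 and 1330 in serum starvation and 2280 and 2190 in log phase.

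Compared with other ORF kinds over the 3 conditions, members had a median log2 of 0.09, ncRNA ORFs starting at CTG or GTG −0.09 (497 of 2029 higher, 374 lower), ATG ORFs upstream of coding sequences −0.17 (50 of 310 higher, 59 lower) and coding ORFs −0.83 (424 of 4961 higher, 1835 lower). The differences between these kinds were not tested.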

How the data were processed

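The series holds 12 libraries of ribosome footprints from HEK293 cells. The deposited table gives, per ORF and library, expected counts from the authors' ORF caller PRICE, named in the file title, which divides footprints among ORFs, and a caller p-value per ORF, which the authors deposited and which formed only the set under 1e-4. Bowtie 1.0 and hg38 are named in the submitters' processing notes, without their role. Columns carry the letters A and B, which no label ties to a replicate number.

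Overlaps were removed so that each codon counted once, with coding ORFs first and then higher totals. Expected counts were rounded to whole numbers and fitted with edgeR 4.0.16 (R 4.3.3) quasi-likelihood models over 6 groups, with TMM scaling and filterByExpr (minimum count 10, minimum total 15). Tests were two-sided with a Benjamini-Hochberg adjusted p under 0.05 over all 26466 ORFs tested, in 10 contrasts. The common biological coefficient of variation was 0.632. The model was tested on simulated data. PCR reads carry no molecular identifiers here. CPM values use all kept footprints of a library, so those of log phase and amino acid starvation monosome A are lowered by the ORF that holds 47.9% and 47.5% of them. Statements on whether libraries overlap use these CPM values and can differ on other totals. CPM summed over a set of members leave both dominating ORFs out of the totals, as do shares where stated.

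The B minus A deviations correlated between groups with r of 0.212 to 0.761 over 15 pairs of groups, so blocked values by letter stand beside results they change. Hosts are the RefSeq genes (GRCh38.p14) around an ORF. They were classed as coding where any of the table's gene identifiers also has ORFs typed as coding, or as upstream of, inside or downstream of a coding sequence (3239 members). Otherwise the RefSeq type of the shortest gene around the ORF gave the class. The strand of 1648 of the 5494 hosts was not given. The members and lists were chosen with earlier results of these data known. Named members are the 3 highest per length class, up to 6 per contrast and direction by fold among those passing without overlap and with 20 footprints in the higher group, the top member of each listed host with at least 50 footprints, and the 2 highest totals per host class. FGD5-AS1, MALAT1 and the other listed hosts belong to that rule; the sequence examples, caller-supported members, and mitochondrial, small nuclear and ribosomal protein sets were added after values were seen. Alternatives were DESeq2 1.42.0, RLE scaling, TMM from coding ORFs, no filter, a filter of 50 counts in 2 libraries, all ORFs with overlaps, a replicate block, caller-supported members, and leaving out each library.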

Additional observations from a re-analysis of the deposited data

Results flagged for a closer look

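With the replicate block, a test of whether the ratio of monosome to polysome level differed between serum starvation and log phase passed for 2 members, both lower in serum starvation, where 18 of 26466 tested ORFs (0.068%) passed, all lower. Without the block neither passed. MTCO2P12_9nt, in a nuclear copy of the mitochondrial cytochrome oxidase subunit 2 gene, had a log2 change of −6.37 (SE 1.29, adjusted p = 0.0409, edgeR). Its monosome libraries A and B had 4.23 and 37.2 CPM in serum starvation, against 8.06 and 205 in log phase, and its polysome libraries 0 and 6.7, against 0 and 0.223. ENSG00000205682_6nt, in no RefSeq gene, had a fitted log2 change of −15.93 (SE 2.81, adjusted p = 0.0229, edgeR). Its monosome libraries had 0 and 0.594 CPM in serum starvation, against 29.6 and 125 in log phase, and its polysome libraries 0 and 11.9, against 0 and 0.251. For both members a library of the ratio is at 0, so the fitted size is no bound.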

How the results depend on the processing

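No count of calls and no called member given by name reversed under the alternatives run. With TMM from coding ORFs, the median log2 changed sign for members of 60 to under 150 nt (−0.06 to 0.55), 150 to under 300 nt (−0.38 to 0.20) and 300 nt or more (−0.56 to 0.09), for those in protein-coding genes (−0.20 to 0.43) and pseudogenes (−0.34 to 0.31) and for those outside the mitochondrial and small nuclear sets (−0.14 to 0.50). With RLE scaling it changed sign at 60 to under 150 nt (0.05). Of 66 called members given by name, 52 stayed called the same way under all alternatives and 14 were lost under at least 1. For monosome against polysome over 3 conditions, the 456 called members became 767 with no filter, 126 with at least 50 counts in 2 libraries and 707 with every ORF and its overlaps, and 329 to 534 without 1 library. With the replicate block 599 were called. In log phase, 92 became 335 with the block, 45 with the stricter filter, 149 with overlaps, 145 with DESeq2 and 19 to 118 without 1 library. In serum starvation, 70 became 338 with the block, 141 with TMM from coding ORFs, 122 with no filter, 43 with the stricter filter, 149 with overlaps, 145 with DESeq2 and 8 to 121 without 1 library. In amino acid starvation, 54 became 235 with the block, 84 with overlaps, 96 with DESeq2 and 0 to 83 without 1 library. In amino acid starved against log phase polysomes, 0 became 23 with the block, 4 with no filter and 2 with DESeq2. With no filter, 7 members passed in serum starved against log phase monosomes, 2 for the ratio change in amino acid starvation and 5 for that in serum starvation, where the block gave 2. The counts of the 6 starvation contrasts were 0 without each library. With the dominating ORFs kept, the members' mean share was 3.35% in monosomes (3.05 to 3.52% without 1 library) and 2.98% in polysomes (1.57 to 3.30%); the monosome share was 0.0977% for members with a caller p under 1e-4 and, as an alternative added after seeing the data, 2.32% without mitochondrial pseudogenes and small nuclear, nucleolar and 7SK RNA hosts. On that basis the log2 of monosome over polysome was 0.62 (0.52 to 0.95 without 1 library), and −1.11 for caller-supported members. By length it ranged without 1 library over 1.59 to 2.47 under 30 nt, 0.13 to 0.47 at 30 to under 60 nt, −0.08 to 0.25 at 60 to under 150 nt, −0.70 to −0.40 at 150 to under 300 nt and −1.18 to −0.96 at 300 nt or more. The causes of these shifts were not tested. For alternatives other than the block, the share of all ORFs called is not given here. A shift particular to members therefore cannot be told apart from one over all ORFs. Depth limits the starved monosomes most, at 354507.5 footprints in the smallest library. The filter left 3388 kept members untested, and these were not always the members with the fewest footprints. Of the tested members, 2 had no footprint in any polysome library and 1 none in any monosome library; at the bound of 3 footprints the median log2 stayed at 0.09.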
